A study of Mus musculus with 36 samples.

Results

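The 10 immediate early genes were followed through RNA of mouse pancreatic fibroblasts cultured alone or with tumour cells: Fos, Fosb, Fosl1, Jun, Junb, Egr1, Egr2, Ier2, Ier3 and Dusp1. They were chosen by gene symbol from the 39017 genes of the count table, each symbol matched 1 row, and all 10 were among the 14439 genes with enough counts to be tested. The series held 36 libraries in 9 groups of 4. In 1 group, here called the mono-culture, the fibroblasts had no tumour cells with them, and in the others they had shared a dish for 48 h with one of 8 tumour lines: clones E, K, H, M, N, V and T, and KPC1, a name that the labels do not explain. All fibroblasts were of the C57BL/6 strain. The labels give no genotype, no agent and no age, and they do not say whether libraries of a group came from separate cultures or animals, so p-values here measure the spread between these libraries, which may be technical. The note on flow sorting of fibroblasts from GFP-carrying tumour cells stands with all 36 samples. Whether the mono-culture fibroblasts were passed through the sorter is not given in the sources used here, so an effect of co-culture and an effect of sorting cannot be told apart against the mono-culture, whereas the 8 co-cultures had the sort in common.

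Immediate early genes are transcribed within minutes of a stimulus such as serum, a growth factor, adhesion, stretch or cell dissociation, with no need for new protein synthesis, and most of their mRNAs are short-lived. ERK signalling reaches them through ternary complex factors and serum response factor bound at CArG boxes, and CREB acts at cyclic AMP response elements (CRE). The FOS and JUN proteins pair to form AP-1, the EGR proteins are zinc-finger transcription factors, and DUSP1 is a phosphatase that switches MAP kinases off again. In fibroblasts these genes are the classical markers of the serum response, and Fosl1, which encodes FRA1, is known as a slower member whose own transcription depends on AP-1.

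Library totals ranged from 12532122 to 21985538 counts. Values per library are CPM, counts relative to the library total after TMM scaling between libraries, and changes are log2 fold changes with their standard error from edgeR's quasi-likelihood test, adjusted over all genes tested with 0.05 as the threshold. Fibroblast markers (8 of 8 in the table, among them Col1a1, Dcn and Pdgfrb) summed to 21038 to 22868 CPM in mono-culture and 10545 to 31784 CPM in co-culture. In the mean of the co-cultures 4 of the 8 were called lower and 1 higher, where 26.6% of all genes tested were lower and 26.1% higher. With clones H and V 5 were lower and with T and KPC1 6 (medians of the 8 between -0.54 and -0.98 on the log2 scale). None was lower with E, K, M or N. Of all genes 26.4% were lower with H, 28.9% with V, 24.7% with T and 28.5% with KPC1. With the other lines the shares were smaller, 15.5% with E, 8.69% with K, 10.8% with M and 19.2% with N. Epithelial markers (Krt8, Krt18, Krt19, Krt7, Epcam, Cdh1, Cldn4, Cldn7 and Esrp1) summed to 0.988 to 1.70 CPM in mono-culture and 18.3 to 797 CPM in co-culture, with group means between 100.4 CPM for clone V and 533 CPM for clone N. Of the 5 epithelial markers tested 4 were higher in the mean of the co-cultures. Epcam was at 0 in all libraries of clones E, H, V and T, and Cldn4 was at 0 in every group except clone T. Epithelial transcripts thus moved with co-culture, and their part in the results on the early genes was not tested. Leukocyte markers summed to at most 16.2 CPM and endothelial markers to at most 6.33 CPM in any library.

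The stretches before the transcription start of 4 of these genes are shown because each holds TGACG, part of the cyclic AMP response element. The Egr2 stretch also holds a CArG box, where serum response factor binds, and those of Fos, Fosb and Dusp1 hold none. A CArG box farther from the start than the bases searched would not be seen. The choice also rested on Fosb and Dusp1 varying most closely with Fos among libraries, and on Egr2 rising in every co-culture. Capitals mark matches to the motifs searched.
Fos, chr12:85473740-85473889 of GRCm38.p6, plus strand: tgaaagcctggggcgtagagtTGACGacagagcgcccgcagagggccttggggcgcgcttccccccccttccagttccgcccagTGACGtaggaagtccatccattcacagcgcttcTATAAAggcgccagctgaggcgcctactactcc
Fosb, chr7:19310052-19310195 of GRCm38.p6, minus strand: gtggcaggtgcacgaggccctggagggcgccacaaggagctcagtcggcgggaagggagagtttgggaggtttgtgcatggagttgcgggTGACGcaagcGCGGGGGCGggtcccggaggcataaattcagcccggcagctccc
Dusp1, chr17:26508520-26508622 of GRCm38.p6, minus strand: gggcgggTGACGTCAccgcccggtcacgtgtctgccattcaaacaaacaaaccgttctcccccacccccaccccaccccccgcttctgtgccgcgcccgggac
Egr2, chr10:67537719-67537868 of GRCm38.p6, plus strand, before the third of 5 annotated starts: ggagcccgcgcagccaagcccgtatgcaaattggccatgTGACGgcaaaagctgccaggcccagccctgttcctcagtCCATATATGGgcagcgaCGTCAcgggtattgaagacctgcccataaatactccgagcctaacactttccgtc

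The sequences are from RefSeq, without the bases that fall in an annotated exon of the gene. RefSeq windows of 300 bases, 250 before and 50 after a start, were matched for 7 of the 10 genes, not for Fosl1, Egr1 and Ier2. Both strands were searched for the CRE palindrome TGACGTCA, its part TGACG (so the longer word also counts as the shorter), TATAAA, and by name the CArG box, the AP-1 site and the EGR site. Fos, Fosb, Junb, Egr2 and Dusp1 held TGACG, which 20.8% of the 32851 windows of all genes held. Dusp1 held the whole palindrome (1.79% of all windows) and Egr2 a CArG box (1.63%). Egr2 had 5 windows, and a match in any of them was counted, whereas the shares of all genes are per window. Fosb held an EGR site (5.55%), and Fos had TATAAA before its start (13.6% of all windows held it). None of the 7 held the AP-1 site (7.81%), which says only that these letters are not in these windows. The windows of Jun and Ier3 had no match to any of the 6 motifs.

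In the mean of the 8 co-cultures 6 members were called higher than in mono-culture, and none was called lower. Those 6 were Fosl1, Egr2, Ier3, Egr1, Junb and Jun. Of all genes tested 26.1% were called higher in this comparison and 26.6% lower. The other members, Fos, Fosb, Ier2 and Dusp1, had log2 fold changes between -0.18 and 0.15 with adjusted p-values of 0.56 to 0.88. The median of the 10 was 0.94 on the log2 scale and that of all genes tested was 0.01. The same 6 were called with DESeq2, with RLE or no scaling and with either other filter.

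**Figure D1:**
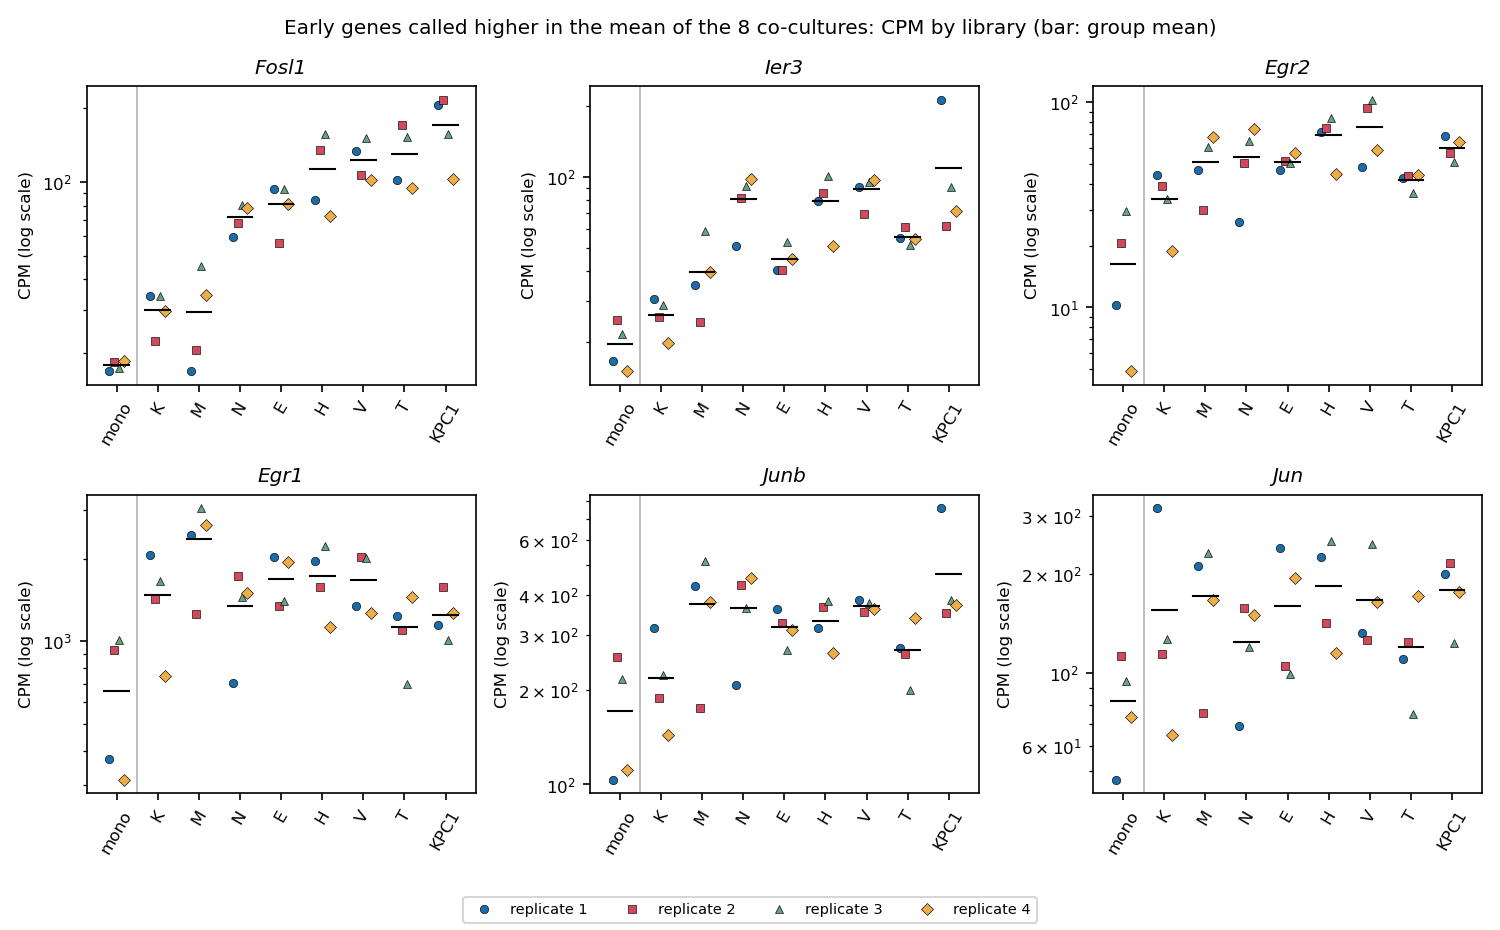
CPM on a log scale in each of the 36 libraries for the 6 members called higher in the mean of the co-cultures; each point is a library, its shape gives the replicate number and the bar is the group mean. Fosl1 lies between 16.9 and 18.5 CPM in mono-culture and above that in 31 of the 32 co-culture libraries, while Egr1 and Egr2 are spread within the mono-culture itself.

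In the mean of the co-cultures Fosl1 had the largest change of the 10. Its mono-culture libraries had 16.9, 18.3, 17.3 and 18.5 CPM (17.7 ± 0.788, SD, n = 4), a tight group. With KPC1 they had 206, 217, 157 and 103 CPM, with clone T 102, 171, 153 and 94.2 CPM, and with clone V 134, 106, 151 and 102 CPM. These 12 libraries were all far above the highest mono-culture library. Clone H gave 84.6, 135, 157 and 72.7 CPM, clone E 93.6, 56.0, 93.3 and 81.6 CPM, and clone N 59.7, 67.9, 80.8 and 78.0 CPM. In these groups too each library was above every mono-culture library. Clone K gave 34.1, 22.4, 34.2 and 29.7 CPM, and clone M 16.8, 20.5, 45.4 and 34.5 CPM. The K libraries were all above the mono-culture range, and M replicate 1 was the 1 co-culture library below it.

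The log2 fold change of Fosl1 was 2.16 ± 0.24 (SE) in the mean of the co-cultures (adjusted p = 2e-08, edgeR), and ran from 2.01 ± 0.28 with clone N to 3.27 ± 0.29 with KPC1 in the 6 lines where it was called. With clones K and M it was 0.76 ± 0.28 (adjusted p = 0.053) and 0.72 ± 0.28 (adjusted p = 0.061), and DESeq2 called both (adjusted p = 0.025 and 0.031). In bulk RNA fewer cells that carry a transcript and less of it in each cell cannot be told apart. Fosl1, at chr19:5447547-5455946 on the plus strand of GRCm38, shares 1163 exon bases with Ccdc85b on the other strand. The library kit kept strand, but whether counting used it is not stated. Ccdc85b had 28.2 ± 1.97 CPM in mono-culture and group means of 22.4 to 34.1 CPM in co-culture, and was called in no line in the higher direction (mean of the co-cultures 0.07 on the log2 scale, adjusted p = 0.64, edgeR).

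Ier3, an early response gene that encodes a regulator of cell survival and of ERK signalling, had 16.7, 24.8, 21.8 and 15.1 CPM in mono-culture. The KPC1 libraries had 212, 61.9, 90.3 and 71.3 CPM, those of clone V 90.8, 69.9, 95.4 and 97.3 CPM, and those of clone N 50.7, 81.1, 91.7 and 97.5 CPM. All 12 were above the mono-culture range, and KPC1 replicate 1 stood far above the rest. With clone H there were 79.2, 85.0, 100.3 and 51.2 CPM, with clone T 54.9, 61.0, 51.6 and 54.5 CPM, and with clone E 40.4, 40.5, 53.2 and 44.9 CPM. None of these overlapped the mono-culture either. Clone M gave 35, 24.4, 58.8 and 39.7 CPM and clone K 30.5, 25.6, 28.7 and 19.9 CPM, and in each of these 2 groups 1 library fell within the mono-culture range. The fold change was 1.61 ± 0.25 on the log2 scale in the mean of the co-cultures (adjusted p = 3.5e-06, edgeR), highest at 2.48 ± 0.30 with KPC1, called in 7 lines and not in clone K (0.42 ± 0.29, adjusted p = 0.35). With clone M the call was lost without M replicate 3 (adjusted p = 0.086) or mono-culture replicate 4 (adjusted p = 0.051).

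Egr2, a zinc-finger factor of the serum response, was the member called higher in all 8 lines. The mono-culture libraries were widely spread, at 10.3, 20.6, 29.4 and 4.89 CPM. Clone V gave 48.1, 93.8, 103 and 58.8 CPM, clone H 71.9, 75.1, 84.1 and 44.9 CPM, and KPC1 68.5, 56.4, 51.3 and 63.9 CPM. These lay wholly above the mono-culture. Clone N gave 26, 50.8, 64.9 and 74.5 CPM, clone E 46.9, 51.5, 50.9 and 56.3 CPM, and clone M 46.6, 29.8, 60.9 and 67.5 CPM. Only the first N library among these was within the mono-culture range. Clone T gave 42.9, 43.6, 36.2 and 44.1 CPM, and clone K, the lowest, 44.0, 38.9, 33.7 and 18.8 CPM. The log2 fold change was 1.73 ± 0.31 in the mean of the co-cultures (adjusted p = 3e-05, edgeR), from 1.08 ± 0.37 with clone K (adjusted p = 0.036) to 2.24 ± 0.37 with clone V. The call in clone K was lost when any one of 5 libraries was left out, K replicates 1, 2 and 3 and mono-culture replicates 1 and 4 (adjusted p = 0.068 to 0.14), and without the filter on low counts (adjusted p = 0.077). In fits of only the 2 groups compared it was not called in clone K (adjusted p = 0.17) or clone M (1.70, adjusted p = 0.059).

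Egr1, which encodes the best known EGR factor, had the highest level of the members. In RPKM, which relates reads to gene length and library total and so allows genes to be compared, it stood at 152 ± 83.2 in mono-culture and 351 ± 127 in the 32 co-culture libraries. Its mono-culture libraries had 373, 929, 1015 and 313 CPM, a low and a high pair. Group means with SD in co-culture were 2352 ± 774 CPM for clone M, 1724 ± 479 for H, 1685 ± 360.2 for E, 1667 ± 414 for V, 1472 ± 550.0 for K, 1347 ± 446 for N, 1248 ± 242 for KPC1 and 1124 ± 319 for T. Of the 32 libraries 28 were above the highest mono-culture library. The log2 fold change was 1.23 ± 0.29 in the mean of the co-cultures (adjusted p = 0.00066, edgeR), and clone T was the line in which it was not called (0.77 ± 0.35, adjusted p = 0.064 with edgeR and 0.043 with DESeq2). Its calls in clones K and N and with KPC1 were each lost without mono-culture replicate 1 or 4 or 1 library of the line itself (K replicate 1, N replicate 2 or KPC1 replicate 2; adjusted p = 0.06 to 0.097), and in fits of only the 2 groups compared (adjusted p = 0.064 to 0.1).

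Junb and Jun encode partners of the FOS proteins in AP-1. Junb had 103, 255, 217 and 111 CPM in mono-culture, and its co-culture means ran from 217 ± 72.1 CPM with clone K to 468 ± 194 CPM with KPC1. The mono-culture again held a low and a high pair. It was called higher in 6 lines (0.88 ± 0.30 with E to 1.45 ± 0.31 with KPC1 on the log2 scale) and in the mean (0.95 ± 0.25, adjusted p = 0.0017, edgeR), with clone K at 0.34 ± 0.30 and clone T at 0.64 ± 0.30 (adjusted p = 0.48 and 0.077). Jun had 47.2, 112, 94.7 and 73.5 CPM in mono-culture, and its co-culture means lay between 119.9 ± 39.8 CPM with clone T and 184 ± 65.7 CPM with clone H. It was called in 3 lines, H (1.17 ± 0.41), V (1.03 ± 0.41) and KPC1 (1.13 ± 0.41). Its call in the mean of the co-cultures (0.93 ± 0.33, adjusted p = 0.019, edgeR) was lost without mono-culture replicate 1 (0.73, adjusted p = 0.10) or replicate 4 (0.88, adjusted p = 0.061). The calls of Jun in single lines were lost without mono-culture replicate 1 (adjusted p = 0.069 with H, 0.11 with V and 0.074 with KPC1), with H also without H replicate 3, and with V also without mono-culture replicate 4 or V replicate 3, without scaling (adjusted p = 0.051) and without the filter on low counts (adjusted p = 0.057). DESeq2 also called Jun with clone M (1.06, adjusted p = 0.044). That of Junb with clone E was lost without E replicate 1 or mono-culture replicate 1 or 4 (adjusted p = 0.064 to 0.11). In fits of only the 2 groups compared Junb was not called with clone E (0.90, adjusted p = 0.054) or clone M (1.15, adjusted p = 0.09). Junb shares 173 exon bases with Prdx2 and Jun 232 with the antisense gene Junos. Neither partner was called higher in any line, with Prdx2 at 143.6 CPM in mono-culture and 116.7 in co-culture and Junos at 1.51 and 1.59. In the mean of the co-cultures Prdx2 was called lower (-0.30 on the log2 scale, adjusted p = 0.043, edgeR).

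**Figure D2:**
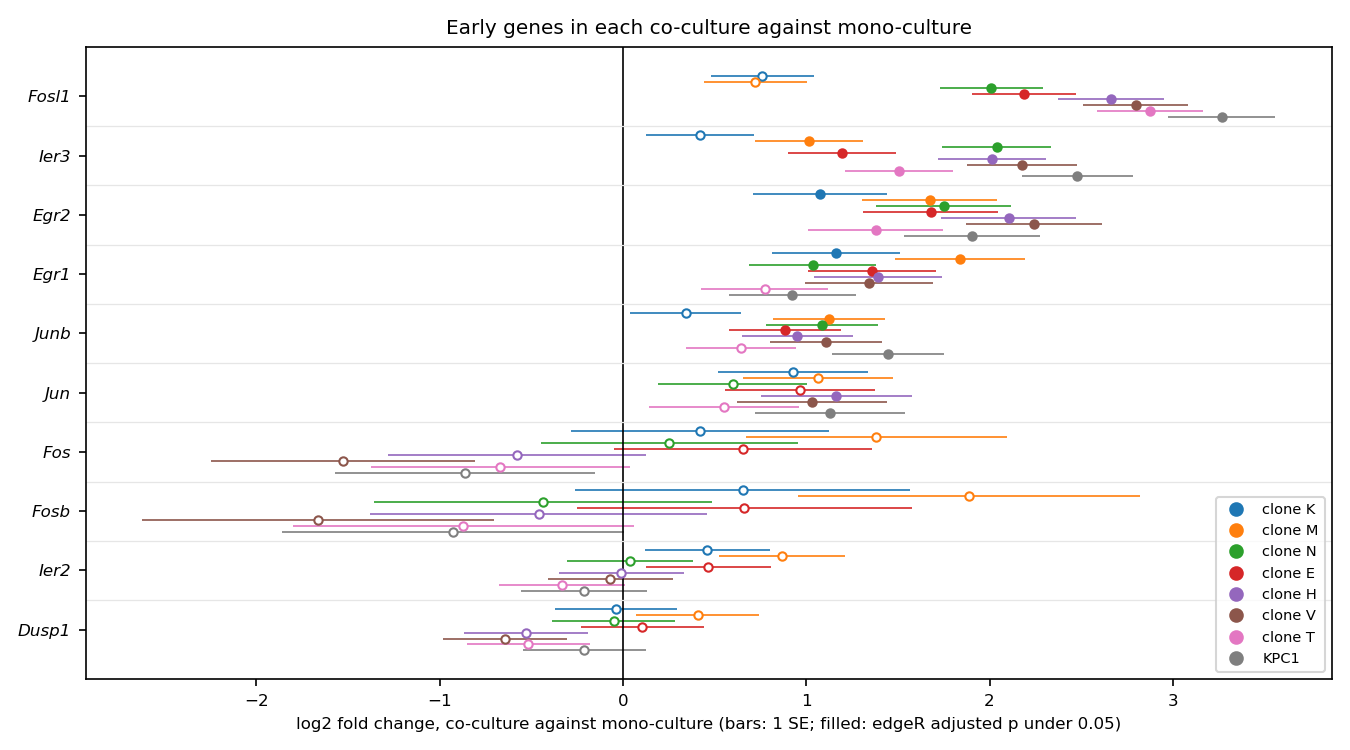
Log2 fold change of each member in each co-culture against mono-culture with 1 SE; filled points passed an adjusted p of 0.05 in edgeR. Fosl1 runs from 0.72 with clone M to 3.27 with KPC1, Egr2 is filled in all 8 lines, and Fos and Fosb lie on both sides of 0 with long error bars.

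By line, 6 members were called higher with KPC1, H and V, 5 with E and N, 4 with M, 3 with T and 2 with K, and no member was called lower with any line. The share of all genes called higher was 30.5% for KPC1, 27.8% for H, 29.4% for V, 16.5% for E, 19.7% for N, 12.2% for M, 25% for T and 10.4% for K, and the share called lower was 28.5%, 26.4%, 28.9%, 15.5%, 19.2%, 10.8%, 24.7% and 8.69% in the same order. With T the members' share, 3 of 10, was close to that of all genes. All these comparisons share the 4 mono-culture libraries. Counts for clone K fell to 0 when K replicate 1 or mono-culture replicate 1 or 4 was left out, to 1 without K replicate 3, and rose to 3 at most. For clone M the count rose to 7 without M replicate 2, and for clone T to 5 without mono-culture replicate 2. The shares of all genes above are from the main fit, and those of the fits with a library left out are not given here.

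Fos, the partner of JUN proteins in the classical AP-1 dimer, had 57.2, 331, 450.0 and 47.2 CPM in mono-culture. Replicates 2 and 3 were thus several times higher than replicates 1 and 4, and the highest was 9.53 times the lowest. Clone M gave 607, 153, 912 and 634 CPM, clone E 484, 245, 206 and 457 CPM, and clone K 555, 235, 272 and 122 CPM. Each group reached above the mono-culture range, and each had libraries inside it. Clone N gave 74.2, 411, 199 and 369.6 CPM, clone H 176, 105, 202 and 109.8 CPM, and clone T 133, 101, 73.7 and 248 CPM. All 12 lay within the mono-culture range. KPC1 gave 94.5, 57.0, 62.3 and 272 CPM, and clone V, the lowest, 18, 28.2, 132 and 129 CPM, with V replicates 1 and 2 below every mono-culture library. No line was called: the log2 fold change ran from -1.53 ± 0.72 with clone V (adjusted p = 0.07, edgeR) to 1.38 ± 0.71 with clone M (adjusted p = 0.17). The value for clone V passed with DESeq2 (-1.53, adjusted p = 0.037) and without any one of 4 libraries, mono-culture replicates 1 and 4 and V replicates 3 and 4 (adjusted p = 0.032 to 0.047).

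Fosb, a FOS relative well known from neurons, followed a wider version of that pattern. Its mono-culture libraries had 4.46, 65.2, 127 and 4.30 CPM, so the highest was 29.5 times the lowest. Clone M gave 165, 19.1, 362 and 189 CPM, clone K 179, 43.6, 78.6 and 11.1 CPM, and clone E 128, 33.7, 39.0 and 114 CPM. Clone N gave 6.43, 58.9, 29.5 and 52.2 CPM, clone H 44.1, 25.5, 68.0 and 7.24 CPM, and clone T 28.9, 24, 17.4 and 38.4 CPM. KPC1 gave 28.6, 7.42, 13.7 and 54.6 CPM and clone V 6.71, 6.07, 33.9 and 16.4 CPM. Outside M, K and E no library passed the highest mono-culture value, and none in any group fell below the lowest. Against mono-culture no line was called, from -1.66 ± 0.96 with clone V to 1.89 ± 0.93 with clone M on the log2 scale (adjusted p = 0.14 and 0.15, edgeR).

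Ier2, an early gene that encodes a nuclear protein, had 79.8, 268, 245 and 128 CPM in mono-culture, and Dusp1 had 42.8, 108, 117 and 51.6 CPM. Both had replicates 2 and 3 above replicates 1 and 4, as Fos did. Ier2 means in co-culture ran from 143 ± 39.1 CPM with clone T to 329 ± 115 CPM with clone M, and Dusp1 means from 51.2 ± 24.6 CPM with clone V to 106 ± 30.7 CPM with clone M. The largest changes against mono-culture were 0.87 ± 0.34 for Ier2 with clone M (adjusted p = 0.067) and -0.64 ± 0.34 for Dusp1 with clone V (adjusted p = 0.10), and neither gene was called in any line with edgeR. Without V replicate 3 the fall of Dusp1 with clone V was called (-0.99, adjusted p = 0.019), as it was without mono-culture replicate 1 (-0.85, adjusted p = 0.038), and the rise of Ier2 with clone M was called without M replicate 2 or mono-culture replicate 2 or 3 (adjusted p = 0.022 to 0.046). Dusp1 shares 11 exon bases with Ergic1, which had 212 CPM in mono-culture and 239 in co-culture. Ergic1 was called higher in 1 line and not in the mean of the co-cultures (0.17 on the log2 scale, adjusted p = 0.09, edgeR).

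**Figure D3:**
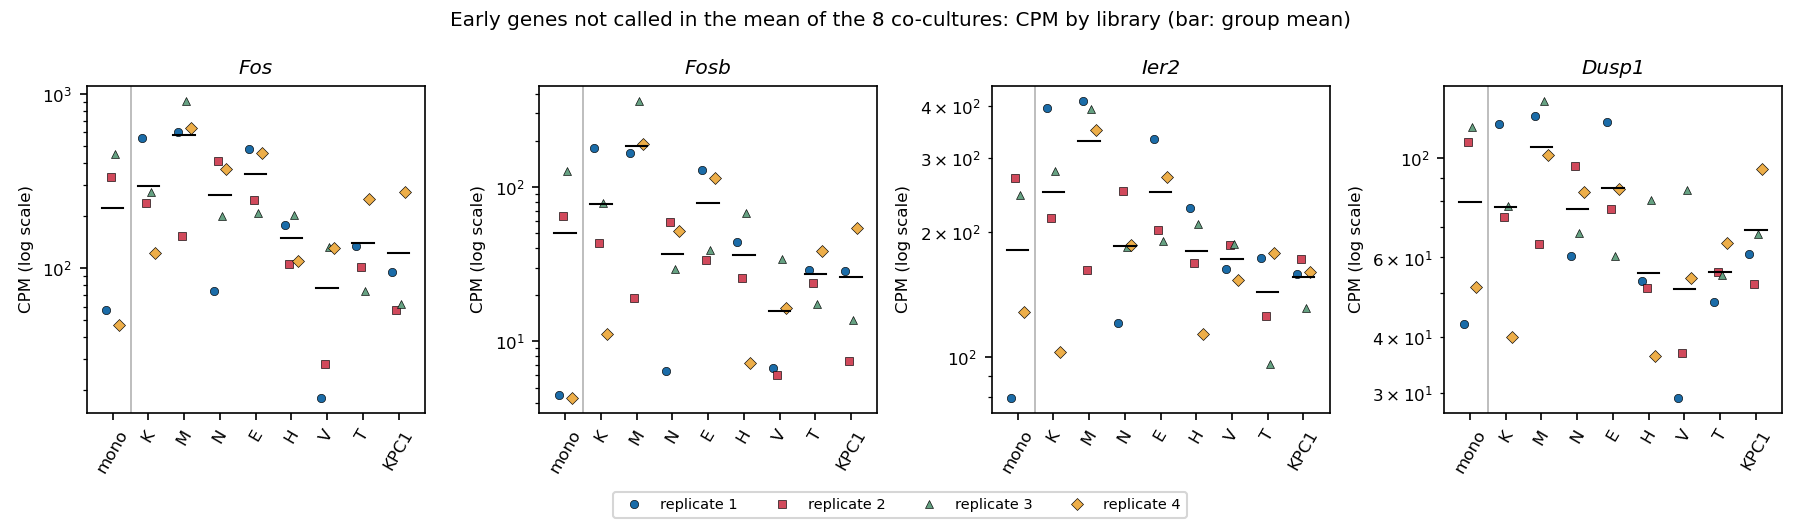
CPM on a log scale in each of the 36 libraries for the 4 members not called in the mean of the co-cultures; symbols as for the 6 called members, bars are group means. In mono-culture replicates 2 and 3 lie above replicates 1 and 4 in all 4 panels, for Fos at 331 and 450.0 against 57.2 and 47.2 CPM.

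The 8 co-cultures were next compared with each other, which sets sorted cells against sorted cells. An F-test across the lines called 5 of the 10 members, a smaller share than the 72.0% of all genes called. They were Fosl1 (adjusted p = 5e-09, edgeR), Ier3 (3.2e-06), Fos (0.01), Fosb (0.015) and Ier2 (0.026). Jun (0.75), Egr1 (0.13), Egr2 (0.075), Dusp1 (0.067) and Junb (0.06) were not called. Leaving out 1 library at a time, Fosl1, Ier3 and Fos were called in all 32 fits. Fosb was lost without M replicate 3, which left 3 members, and Ier2 without M replicate 1, 3 or 4. Without M replicate 2 there were 8, and in a fit of the co-culture libraries alone there were 9, all but Jun. The share of all genes called in those fits is not given here. The share of members was therefore set beside that of all genes in the main fit only.

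The 5 called genes did not share one order of lines. Fosl1 was lowest with clone M and highest with KPC1, 5.83 times as high by group mean, in the order M (29.3 ± 13.2 CPM), K (30.1 ± 5.55), N (71.6 ± 9.69), E (81.1 ± 17.7), H (112 ± 40.3), V (123 ± 23.2), T (130.2 ± 37.9) and KPC1 (171 ± 52.4). Of the 7 steps between neighbours, the one from K to N was called (adjusted p = 0.0015) and the other 6 were not (adjusted p = 0.18 to 0.97). Ier3 was lowest with clone K (26.2 ± 4.65 CPM) and highest with KPC1 (109 ± 69.7 CPM), 4.16 times as high. Fos and Fosb ran the other way. Fos was highest with clone M (577 ± 314 CPM) and lowest with clone V (76.9 ± 62.3 CPM), 7.50 times apart, and Fosb the same at 184 ± 140.4 and 15.8 ± 13 CPM, 11.7 times apart (18.9 without V replicate 3, a library left out after seeing the data). Ier2 was highest with clone M too and lowest with clone T, 2.30 times apart. No step between neighbouring lines was called for Fos or Fosb.

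Over the 28 pairs of lines, each adjusted over genes and not over pairs, 27.5% of all gene tests were called. Fosl1 was called in 16 pairs, Ier3 in 13, Fos in 7, Fosb in 5, Ier2 in 4, Egr2 and Dusp1 in 3 each, Junb and Egr1 in 2 each and Jun in 0. Between clones M and V, which differed in 57.9% of all genes, Fos and Fosb were lower with V, by log2 fold changes of -2.91 ± 0.75 and -3.55 ± 1.01 (adjusted p = 0.0016 and 0.0035, edgeR), whereas Fosl1 was higher with V by 2.07 ± 0.28 and Ier3 by 1.16 ± 0.29 (adjusted p = 3e-07 and 0.00095). Against KPC1 (55.5% of all genes), clone M had Fos higher by 2.25 ± 0.73 and Fosl1 lower, with a fold change of -2.54 ± 0.28 (adjusted p = 0.011 and 2.4e-08). In 9 pairs no member was called. Few genes of any kind differed between H and V (0.388% of all genes), E and N (1.27%), K and M (2.24%) and H and KPC1 (2.89%), whereas 32.3% differed between H and N, 24% between V and T, 10.7% between V and KPC1, 10.6% between E and T and 7.58% between H and T. Marker sums differed between lines as well. Fibroblast markers summed to means of 26478 CPM with M, 25899 with K, 23183 with N, 22917 with E, 16794 with T, 16745 with H, 16358 with V and 14447 with KPC1, so the 4 lines with the highest Fosl1 were the 4 with the lowest fibroblast marker sums and with fibroblast markers called lower than in mono-culture. Heat shock genes summed to 4859 CPM with K and 5324 with M, the lines lowest in Fosl1, and to 6201 to 7631 CPM with the other 6. Epithelial markers summed to means of 533 CPM with N, 496 with T, 355 with KPC1 and 353 with E. With M the mean was 249 CPM, with H 156, with K 150 and with V 100.4. The part of each in the differences between lines was not tested.

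Libraries of one group differed more in these genes than in most. The SD of log2 CPM within groups was 1.53 for Fosb and 1.09 for Fos, where the median of all genes tested was 0.22. Of the 11695 genes with a mean of at least 2 CPM, 20 had a higher SD than Fosb and 51 a higher SD than Fos. Jun (0.61), Egr2 (0.56), Egr1 and Ier2 (0.53 each), Dusp1 (0.50) and Junb (0.45) came next, and Ier3 (0.41) and Fosl1 (0.40) were lowest. The SE of a single line against mono-culture was 0.70 to 0.72 on the log2 scale for Fos and 0.28 to 0.29 for Fosl1.

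**Figure D4:**
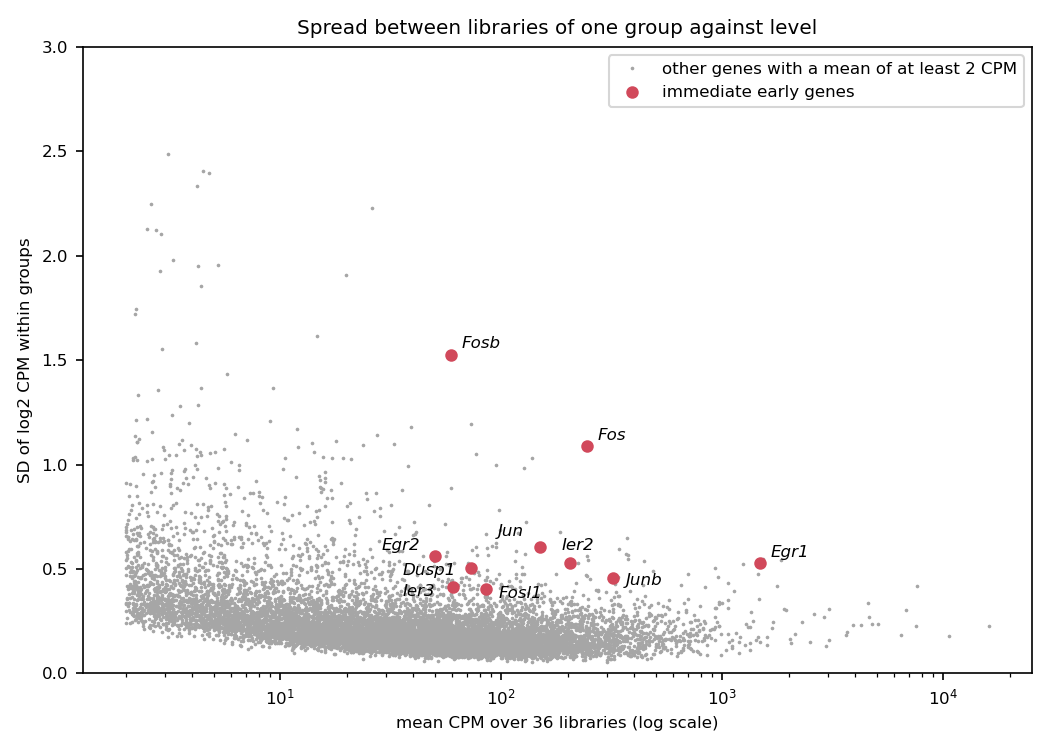
SD of log2 CPM between libraries of one group against mean CPM (log scale) for the 11695 genes with a mean of at least 2 CPM; red points are the 10 members. Fosb at 1.53 and Fos at 1.09 stand above nearly all genes of their level, and Fosl1 and Ier3 are nearest to the bulk.

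After subtraction of group means, the libraries with high Fos were those with high levels of most other members. Over 36 libraries the deviations of Fos went with those of Fosb at r = 0.920 (Spearman's rho 0.923; r = 0.903 without the 2 libraries farthest from the median). A permutation test within groups gave p = 1e-05, the smallest that 100000 permutations can give, and 3e-05 after adjustment over the 9 relations tested. For Dusp1 r was 0.880 (rho 0.898), for Jun 0.766 (rho 0.785), for Egr1 0.764 (rho 0.701), for Ier2 0.736 (rho 0.731), for Egr2 0.729 (rho 0.660) and for Junb 0.711 (rho 0.671), with adjusted permutation p-values of 3e-05 to 0.00053 for r and 3e-05 to 0.0026 for rho. Without the 2 farthest libraries these 6 values of r lay between 0.660 and 0.861. Ier3 was weaker at 0.470 (rho 0.524, adjusted permutation p = 0.012 for r, and r = 0.417 without the 2 libraries). Fosl1 had r = 0.030 (rho 0.018, permutation p = 0.87), and no relation was detected for it. The points share library, depth and scaling.

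**Figure D5:**
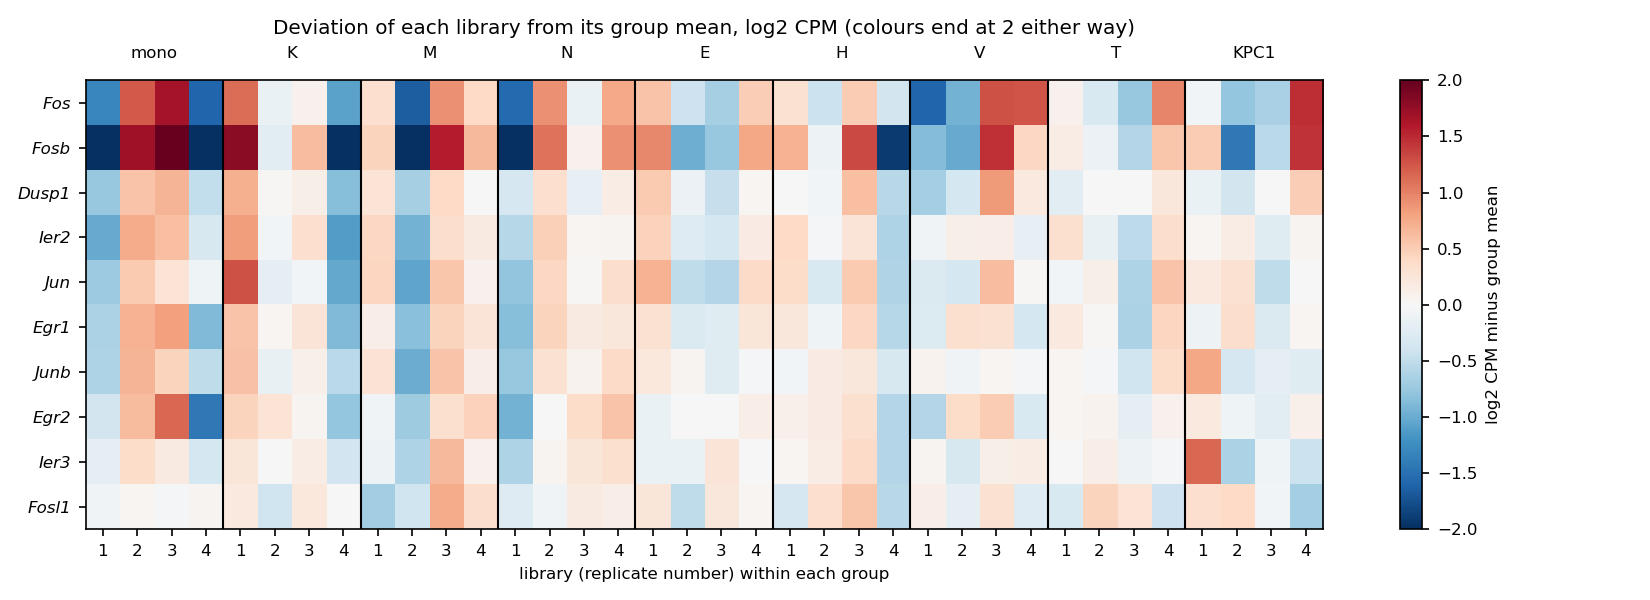
Log2 CPM of each member in each library minus the mean of its group, red above and blue below, with colours ending at 2 either way; columns are the replicates 1 to 4 of each group. Whole columns are blue or red from Fos down to Ier3, as in N replicate 1 and M replicate 2. Fosl1 is also below its group mean in both (-0.25 and -0.40). Over the 36 libraries its row does not follow that of Fos (r = 0.030).

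The same libraries were low for many members at once. M replicate 2 had 153 CPM of Fos where the other M libraries had 607 to 912, and 161 CPM of Ier2 where they had 349.9 to 412. N replicate 1 had 74.2 CPM of Fos, 68.6 of Jun and 705 of Egr1, each the lowest of its group. K replicate 4 was lowest of its group for Fos, Fosb, Jun, Junb, Egr1, Egr2, Ier2, Ier3 and Dusp1. The replicate number in the labels did not mark such libraries in common: an F-test of replicate number over the 32 co-culture libraries called 0 of 10 members with edgeR, with 0 at an unadjusted p under 0.05 and 0 with DESeq2, where 33.6% of the 14322 genes tested were called.

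Genes outside the 10 were read from fixed lists, which were chosen with earlier results of these data known. Of 29 other immediate early genes tested, 18 were higher and 2 lower in the mean of the co-cultures (median log2 fold change 0.65). In that comparison 26.1% of all genes were called higher and 26.6% lower. By line, 9 were higher with clone M (12.2% of all genes) and 20 with clones H and KPC1 (27.8% and 30.5% of all genes). Cyr61 and Ctgf, matrix-associated targets of serum response factor and YAP signalling, rose by 1.34 ± 0.28 and 2.62 ± 0.38, Mcl1, an anti-apoptotic gene, by 0.67 ± 0.08, and Jund by 0.30 ± 0.12 (adjusted p = 0.037 for Jund, lower for the others). Ctgf went from 57.5 ± 21.7 CPM in mono-culture to line means of 104 to 696 CPM. Genes that ERK signalling induces as feedback or as targets were called almost throughout, 17 higher and 1 lower of 18, with a median of 1.37. Dusp4 and Dusp6, phosphatases that act on ERK, rose by 2.18 ± 0.20 and 2.10 ± 0.32 and were called in all 8 lines. Ccnd1, which encodes cyclin D1, rose by 1.54 ± 0.25 and was called in 7 lines, and Spred1, an inhibitor of RAS signalling, rose by 0.37 ± 0.07 and was called in 6.

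Of 17 AP-1 target genes tested 12 were higher and 2 lower in the mean of the co-cultures (median 1.52). Spp1, which encodes osteopontin, went from 196 ± 32.3 CPM in mono-culture to 1364 CPM in co-culture. Cd44, the hyaluronan receptor, and Vegfa rose by 1.2 ± 0.12 and 1.09 ± 0.14 and were called in all 8 lines. Among 18 upstream regulators, kinases and factors that act on early genes, 6 were higher and 3 lower (median 0.16). The share of all genes called higher in that mean was 26.1%, and the share called lower was 26.6%. Mapk3, which encodes an ERK kinase, fell by 0.18 (SE 0.07, adjusted p = 0.034), Elk3, a ternary complex factor, rose by 0.58 ± 0.10 and was called in all 8 lines, and Mkl1, a coactivator of serum response factor, was not called (0.12 ± 0.09).

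Heat shock genes, which together with Fos and Jun are known to respond to tissue dissociation, were read as a list for handling of cells. Of 11 tested 1 was higher and 3 lower in the mean of the co-cultures, with a median of -0.08. Of all genes 26.1% were called higher there and 26.6% lower. By line, 4 were higher and 2 lower with H and with V, 3 and 4 with KPC1, and 2 and 4 with T. With K and with M 0 were higher and 2 lower, with N 0 and 1, and with E none was called. Of all genes, 27.8% were higher and 26.4% lower with H, and 29.4% and 28.9% with V. The shares were 30.5% and 28.5% with KPC1, and 25% and 24.7% with T. They were 10.4% and 8.69% with K, and 12.2% and 10.8% with M. With N they were 19.7% and 19.2%, and with E 16.5% and 15.5%. The F-test among the co-cultures called 8 of the 11, where 72.0% of all genes were called. Hspd1 rose by 0.52 ± 0.12, whereas Hsp90ab1 (0.16 ± 0.09), Hspa8 (0.04 ± 0.10) and Hsp90aa1 (0.01 ± 0.09) were not called. The list summed to 5519 to 6309 CPM in mono-culture and 4358 to 8170 CPM in co-culture, with the lowest group mean for clone K (4859 CPM) and the highest for clone H (7631 CPM). What part sorting had in the early genes was not tested, since no library is labelled as unsorted.

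The non-member genes most like the 10 were taken by the correlation of log2 CPM with the mean standardised level of the members. Over 36 libraries they were Nr4a1 (r = 0.871), Btg2 (0.824), Cyr61 (0.787), Hes1 (0.744) and Jund (0.718). Over the 32 co-culture libraries with line means subtracted they were Zfp36 (0.857), Nr4a1 (0.841), Btg2 (0.840), Arc (0.789) and Jund (0.779). Nr4a1 encodes an orphan nuclear receptor, Btg2 an antiproliferative protein, Zfp36 an mRNA decay factor, Arc a synaptic protein and Hes1 a Notch-induced repressor. All but Hes1 were on the list of other immediate early genes. Nr4a1 ranged from 9.55 to 232 CPM over the libraries, Zfp36 from 47.0 to 359 CPM and Arc from 2.89 to 68.8 CPM. These values describe libraries that share depth and scaling, and carry no test.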

How the data were processed

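Poly(A)-selected, strand-specific libraries had been made from 200 ng of total RNA with 14 PCR cycles and read as 76-base paired ends. The authors deposited unscaled read counts, as whole numbers by gene, and RPKM values for the same libraries. The submitters' processing notes name STAR, featureCounts, edgeR and the build mm10, with no version or role. Whether counting used strand is not given in the sources used here. The paper supplied describes the tumour clones and not this experiment, so groups came from the labels and the tests were chosen for this report.

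Tests on the counts used edgeR 4.0.16 under R 4.3.3 (filterByExpr, TMM, glmQLFit with robust estimation, glmQLFTest, Benjamini-Hochberg over 14439 genes, threshold 0.05), with 1 coefficient for each of 9 groups of 4. Contrasts set each co-culture and their mean against mono-culture, the co-cultures against each other by an F-test and in 28 pairs, and replicate number over the 32 co-culture libraries. Log2 CPM had a prior count of 1. The RPKM values the authors deposited served only for levels between genes, and log2 fold changes and p-values were computed from the counts. The smallest chi-square per degree of freedom between 2 libraries of a group was 5.53, so none was counted as a repeat of another. Positions are from GENCODE M21 on GRCm38, the sequence of mm10.

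Alternatives were DESeq2 1.42.0, RLE or no scaling, no filter or at least 10 counts in every library, a replicate block, only the groups compared, and each library left out in turn. The test of 1 co-culture against mono-culture (edgeR and DESeq2) and the F-test among co-cultures were checked on simulated data with known changes. The test of replicate number was run on simulated data with no change between replicates. The mean of the co-cultures, the pairs of lines and the permutation test were not simulated. The members, lists and tests were chosen with earlier results of these data known. Named were the 10 members, up to 4 genes per list by mean CPM (2 of these are not reported here), and the 5 likest genes of at least 2 CPM. Totals of 12532122 to 21985538 counts put 3 counts at 0.131 to 0.228 CPM per library, a floor that covers counting error only.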

Additional observations from a re-analysis of the deposited data

Results flagged for a closer look

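Among 90 sets of 4 libraries (10 members in 9 groups, on log2 CPM), 2 had a library whose gap to its nearest neighbour took up more of the range of the set than Dixon's 95% critical value, where chance gives about 1 in 20, or 4.5. Egr2 in clone T had 36.2 CPM in replicate 3 and 42.9 to 44.1 CPM in the others (ratio 0.866). Junb in KPC1 had 758 CPM in replicate 1 and 352 to 387 CPM in the others (ratio 0.877), and the same library was highest of its group for Ier3.

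The change against mono-culture differed between the 8 lines, by the F-test among co-cultures, for Fosl1 (adjusted p = 5e-09, edgeR), Ier3 (adjusted p = 3.2e-06), Fos (adjusted p = 0.01), Fosb (adjusted p = 0.015) and Ier2 (adjusted p = 0.026). Fosl1 was above every mono-culture library in 31 of 32 co-culture libraries and differed in size between lines, whereas Fos was above all of them in 6 and below all of them in 2.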

How the results depend on the processing

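No called fold change changed sign under any alternative. The counts of members called against mono-culture kept within 1.5 times their value under the other tools, scalings and filters, with 3 exceptions: for clone K the count of 2 fell to 1 without the filter on low counts and to 1 with only the groups compared (Egr1 and Egr2 lost, adjusted p = 0.089 and 0.17, and Fosl1 called, 0.0013, edgeR), and for clone M the count of 4 fell to 2 with only the groups compared. Among the co-cultures the count of 5 rose to 9 with only the groups compared. Fewer libraries entered those fits, and the fit among the co-cultures held no mono-culture library. What moved the counts was not tested. The share of all genes called under each alternative, a library left out included, is not given here.

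Without one replicate at a time the counts ran from 0 to 3 for clone K, 3 to 7 for M, 3 to 5 for T, 4 to 6 for E and KPC1, 4 to 5 for N, 5 to 6 for H and for the mean, 6 to 7 for V, and 3 to 8 among co-cultures. The values that changed sign all belonged to Fos, Fosb, Ier2 and Dusp1 and were not called. Their lowest and highest values without one replicate were, on the log2 scale, for Fos -0.46 and 0.51 in the mean, -0.92 and 0.049 with H, -0.076 and 1.04 with K and -0.10 and 0.88 with N. For Fosb they were -0.54 and 0.89 in the mean, -0.97 and 0.58 with H, -0.16 and 1.68 with K, -0.85 and 0.60 with N, -1.26 and 0.16 with T and -1.56 and 0.10 with KPC1. For Ier2 they were -0.10 and 0.41 in the mean, -0.26 and 0.25 with H, -0.23 and 0.30 with N, -0.31 and 0.19 with V and -0.47 and 0.048 with KPC1. For Dusp1 they were -0.40 and 0.070 in the mean, -0.11 and 0.36 with E, -0.32 and 0.21 with K, -0.28 and 0.21 with N and -0.42 and 0.041 with KPC1. Ier2 also changed sign with clone N without scaling (-0.022) and with clone H without the filter (0.015).

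Under the replicate block the counts were 5 for E and N, 6 for H, V, KPC1 and the mean, 4 for M, 3 for T, 3 for K (Fosl1 added, adjusted p = 0.041, edgeR) and 5 among co-cultures. The numbers are no stated pairing: between co-cultures 63 of 112 same-numbered pairs had deviations correlated over 0.1 (lowest -0.519), and 5 of 32 with mono-culture, although 25 of 32 co-culture libraries were closest to a library of the same number in another line. Sample titles number the co-culture libraries from 1 to 32 and the mono-culture libraries from 33 to 36. An effect that follows this order and an effect of co-culture cannot be told apart against the mono-culture. Counting error is small at these depths, and the spread between 4 libraries limits what can be called, most of all for Fos and Fosb.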
